A study of Mus musculus with 6 samples.

Results

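The receptors for the hematopoietic growth factors were described in tumor-associated macrophages (TAMs) through 9 genes, Csf1r, Csf2ra, Csf2rb, Csf2rb2, Csf3r, Il3ra, Il4ra, Epor and Kit, out of 55421 genes in the count table. These genes were chosen by name as receptors of this family, with their levels and their difference between the genotypes in these libraries already known, so their fold changes are given below as a description, without p-values, and nothing is read from the number that passed a threshold. All 9 were found in the raw and in the normalized table, and all 9 passed the filter on low counts. Epor passed this filter only through its Pdcd1f/f libraries, where it was higher. RNA sequencing compared 3 libraries of CD11b+F4/80+ TAMs from Pdcd1f/f mice with 3 libraries from Pdcd1f/fLysMcre mice. Both groups carried floxed alleles of Pdcd1, which encodes the inhibitory receptor PD-1, and both bore M17 tumors, the fibrosarcoma line named MC17-51 in the methods of the study, for 15 days. In the Pdcd1f/fLysMcre mice, Cre recombinase was expressed from the lysozyme locus Lyz2, which is active in macrophages, monocytes and neutrophils, so the deletion is not confined to TAMs. Mice were 8 to 12 weeks old when tumors were implanted. The sources used here do not say how many animals stand behind each library, so the spread between libraries may be in part technical. Because the study places PD-1 beside the GM-CSF receptor in bone marrow myelocytes, the comparison asks which receptor transcripts of this family differed in TAMs when Pdcd1 was targeted in the myeloid lineage.

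Hematopoietic growth factors act through a few kinds of receptors. Csf1r and Kit are receptor tyrosine kinases, for M-CSF and IL-34 and for stem cell factor respectively, and they carry their own kinase domain. Csf2ra, Il3ra, Csf2rb, Csf2rb2, Csf3r, Il4ra and Epor are class I cytokine receptors without a kinase of their own, which signal through bound JAK kinases and then through STAT proteins. The GM-CSF and IL-3 receptors pair a cytokine-specific alpha chain with the common beta chain, and the mouse has in addition Csf2rb2, a beta chain used with IL-3. In macrophages, M-CSF sustains survival and the macrophage program, GM-CSF favors inflammatory activation, and IL-4 drives alternative activation.

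The libraries held between 41833823 and 51417209 counts, and 3 counts in a library corresponded to 0.0583 to 0.0717 CPM (the count as a share of the library, scaled to a common total). Pdcd1 itself was barely read and gave no check of the labels, with counts of 10, 12 and 15 under Pdcd1f/f against 7, 16 and 11 under Pdcd1f/fLysMcre. Lyz2, the gene into which Cre is inserted, separated the labels at that locus. It had 189890 to 242870 counts in libraries labelled Pdcd1f/f but 418 to 503 in those labelled Pdcd1f/fLysMcre. Cre and the low Lyz2 transcript thus came together with the Pdcd1f/fLysMcre genotype. Their part in the differences below cannot be told apart from that of the Pdcd1 deletion. Y-linked transcripts (4 genes, summed and normalized) ranged over 1545 to 1914 for Pdcd1f/f and over 6267 to 7233 for Pdcd1f/fLysMcre. Normalized Xist ranged over 17318 to 26511 for Pdcd1f/f and over 8529.5 to 13137 for Pdcd1f/fLysMcre. Y-linked and Xist transcripts were thus both read in every library, at levels that differed by genotype. The methods of the study state that male and female mice were used in equal numbers. Whether a library pooled animals of both sexes is not given. The sex of the animals behind the libraries cannot be told apart from the genotype. Replicate 1 of Pdcd1f/f and replicate 2 of Pdcd1f/fLysMcre stood apart from the others in that GC-rich genes read lower. The Spearman correlation of a gene's deviation from its genotype mean with its GC content, across 14454 genes, was -0.58 and -0.49 in these libraries and 0.12 to 0.51 in the other 4. The macrophage markers Adgre1, Itgam, Cd68, Fcgr1, Cd14, Ptprc, Mertk and C1qa were all abundant and summed to 5175 to 5683 CPM in Pdcd1f/f and 4764 to 4907 CPM in Pdcd1f/fLysMcre libraries, with 3 of the 8, Adgre1, Mertk and C1qa, called lower at an edgeR adjusted p under 0.05, beside 3.01% of all genes tested. Fcgr1 (log2 fold change -0.21) and Cd14 (0.15) did not pass, but Fcgr1 was lower and Cd14 higher in Pdcd1f/fLysMcre without overlap of the genotypes.

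The receptor transcripts spanned more than 3 orders of magnitude per length of exon, and their order was the same in both genotypes. Csf1r was highest, at 248 ± 17.2 CPM per kb in Pdcd1f/f and 196 ± 11.7 CPM per kb in Pdcd1f/fLysMcre (SD, n = 3 each, as for all levels here). Il4ra followed at 117 ± 15.6 CPM per kb and 63.2 ± 6.35 CPM per kb. The GM-CSF receptor chains Csf2ra and Csf2rb and the IL-3 chain Csf2rb2 lay close together, with Csf2ra at 48.9 ± 7.73 and 42.0 ± 7.21, Csf2rb at 42.1 ± 2.99 and 39.5 ± 2.27, and Csf2rb2 at 34.3 ± 1.74 and 31.5 ± 0.575 CPM per kb. Below them came Csf3r, the G-CSF receptor, at 14.2 ± 0.55 and 9.89 ± 1.02, and Il3ra, the alpha chain for IL-3, at 6.57 ± 1.57 and 4.78 ± 1.38 CPM per kb. Kit and Epor were at the bottom of the order, Kit at 0.464 ± 0.00973 and 0.547 ± 0.127 CPM per kb and Epor at 0.131 ± 0.0212 and 0.0104 ± 0.0105 CPM per kb. Every neighboring pair in this order was separated in all libraries of both genotypes, except Csf2ra and Csf2rb, whose ranges overlapped. When the length of the longest transcript was used instead of all exons, Csf2rb stood above Csf2ra. The levels were 62.5 beside 61.7 CPM per kb in Pdcd1f/f and 58.7 beside 53.0 in Pdcd1f/fLysMcre. Csf2rb2 stayed at 34.3 and 31.5 CPM per kb, so how close it lay to Csf2ra and Csf2rb depends on the length used. Kit and Epor were the only receptors of the 9 under 1 CPM per kb in every library.

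**Figure D1:**
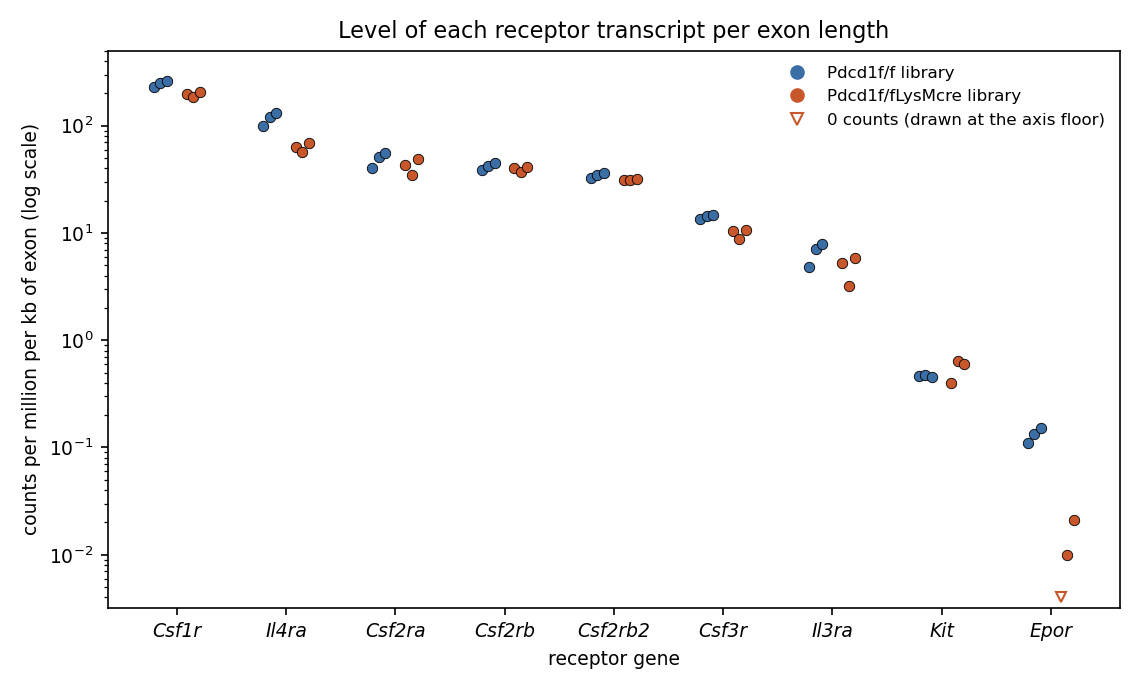
Level of each receptor transcript in each library, in CPM per kb of exon on a logarithmic vertical axis, with the genes in order of their mean in Pdcd1f/f; blue points are Pdcd1f/f and orange points Pdcd1f/fLysMcre libraries, and the open triangle is the Epor library with 0 counts. Csf1r (248 and 196 CPM per kb) leads in both genotypes, and Kit and Epor lie below 1 CPM per kb.

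Csf1r, the M-CSF receptor that defines the macrophage lineage, was lower in each Pdcd1f/fLysMcre library than in any Pdcd1f/f library. The gene (ENSMUSG00000024621) spans chr18:61100598-61132149 of GRCm38, the build of all gene positions here. Its normalized counts were 61885, 68067 and 71410 in Pdcd1f/f and 54367, 50831 and 56259 in Pdcd1f/fLysMcre. The highest Pdcd1f/fLysMcre library thus lay under the lowest Pdcd1f/f library, and the mean was 80.2% of that in Pdcd1f/f, with a fitted log2 fold change of -0.32 (SE 0.07). In bulk RNA a lower level can come from fewer cells with the transcript or from less transcript per cell, and these cannot be told apart here. Hmgxb3, on the opposite strand, covers 873 of the 5774 exonic bases of Csf1r (15.1%), and had 1463 to 1768 counts per library against 53373 to 66734 for Csf1r. The strand setting used in counting is not given in the sources used here, so reads of the shared stretch may have been left out or assigned to either gene. The summed macrophage markers given above were also lower in Pdcd1f/fLysMcre, and their part in the difference of Csf1r was not tested.

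The ratio of Csf1r to Csf2rb had little spread within a genotype. Per length of exon, Csf1r stood at 5.86, 5.96 and 5.83 times Csf2rb in the Pdcd1f/f libraries and at 4.96, 4.97 and 4.99 times Csf2rb in the Pdcd1f/fLysMcre libraries. The 3 values of each genotype differed by less than the gap between the genotypes, and the means were 5.88 ± 0.0707 and 4.97 ± 0.017 (SD, n = 3). The ratio of Csf1r to Csf2ra varied more, at 5.11 ± 0.483 and 4.74 ± 0.552, and the genotypes overlapped. Csf1r and Csf2rb have similar GC content (54.5% and 53.9%), while Csf2ra has 57.8%. Libraries of a genotype differed along GC content, and its part in the spread of these ratios was not tested. Csf1r made up 48.5% ± 1.15 of the summed level of all 9 receptors in Pdcd1f/f and 50.7% ± 0.965 in Pdcd1f/fLysMcre, with Il4ra, the next most abundant receptor, lower by a larger factor than Csf1r.

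**Figure D2:**
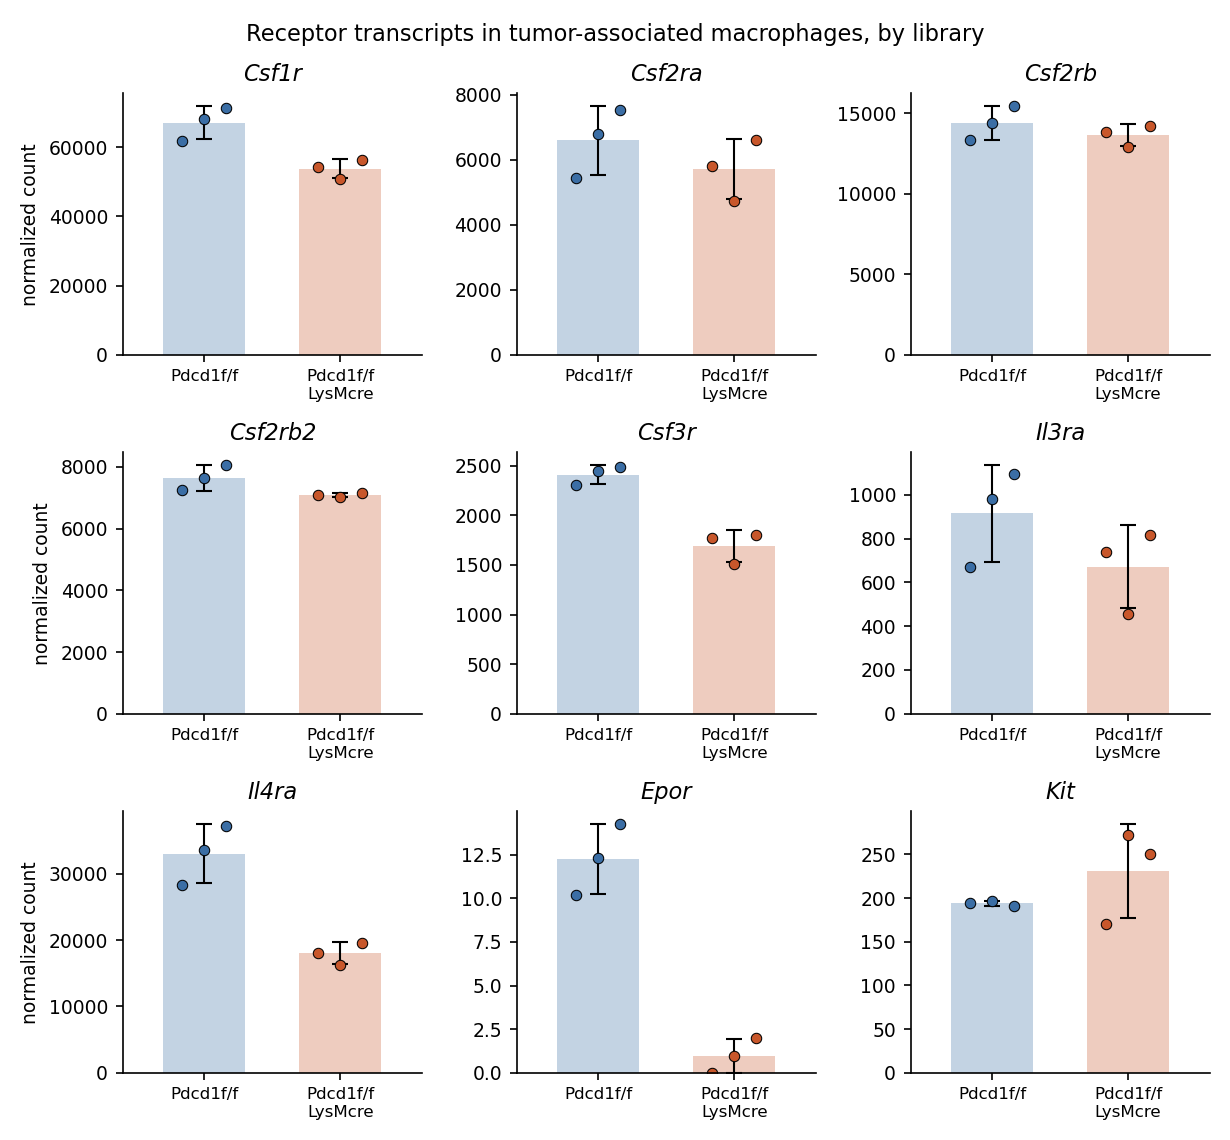
Normalized counts of the 9 receptor genes, 1 panel per gene with its own vertical axis from 0; points are the single libraries, bars the mean and error bars the SD over 3 libraries of Pdcd1f/f (blue) and Pdcd1f/fLysMcre (orange). The genotypes do not overlap for Csf1r, Csf2rb2, Csf3r, Il4ra and Epor, and overlap for Csf2ra, Csf2rb, Il3ra and Kit.

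The 4 chains of the GM-CSF and IL-3 receptors had lower fitted means in Pdcd1f/fLysMcre, but 3 of them overlapped between the genotypes. Csf2ra, the GM-CSF-specific alpha chain (chr19:61223957-61228429), had normalized counts of 5451, 6799 and 7543 in Pdcd1f/f and 5820, 4739 and 6597 in Pdcd1f/fLysMcre. The genotypes overlapped, and the log2 fold change was -0.20 (SE 0.13). Csf2rb, the common beta chain (chr15:78325752-78353847), had 13308, 14385 and 15442 normalized counts in Pdcd1f/f and 13826, 12898 and 14212 in Pdcd1f/fLysMcre, with overlap and a log2 fold change of -0.07 (SE 0.07). The mean of Csf2rb in Pdcd1f/fLysMcre was 94.9% of that in Pdcd1f/f, and its fold change was about the size of its SE. Csf2rb2 (chr15:78282507-78305721), the IL-3-specific beta chain, had 7235, 7622 and 8061 normalized counts in Pdcd1f/f and 7088, 7024 and 7157 in Pdcd1f/fLysMcre. These did not overlap, but the difference was narrow, with a log2 fold change of -0.11 (SE 0.06). Il3ra, the IL-3-specific alpha chain (chr14:14346275-14356011), had 669.5, 980 and 1097 normalized counts in Pdcd1f/f and 741, 457 and 816 in Pdcd1f/fLysMcre. It was the most variable of these chains, with a coefficient of variation of 24.1% and 28.2%, and its log2 fold change of -0.44 (SE 0.22) came with overlapping genotypes.

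Csf2rb and Csf2rb2 are neighboring copies of a duplicated gene, so it matters how far the counting could tell them apart. Their coding sequences, of 2691 and 2637 bases, were identical at 2505 of 2631 aligned bases (95.2%) and shared an unbroken identical run of 242 bases. Of all 42-base words in the longest transcript, as long as a single read, 21.7% of those of Csf2rb were also in Csf2rb2 and 22.5% of those of Csf2rb2 were also in Csf2rb. The windows of 60 coding bases in which the copies differ most are shown because reads from here can be assigned to 1 copy. They run from coding base 304 to 363 of Csf2rb and from 307 to 366 of Csf2rb2, are taken from the GRCm38 reference 5′ to 3′, and capitals mark the 13 positions that differ.
Csf2rb: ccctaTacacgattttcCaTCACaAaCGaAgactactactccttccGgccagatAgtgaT
Csf2rb2: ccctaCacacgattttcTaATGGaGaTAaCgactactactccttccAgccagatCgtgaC
The ratio of Csf2rb to Csf2rb2 per length of merged exons was 1.23 ± 0.0251 in Pdcd1f/f and 1.25 ± 0.0509 in Pdcd1f/fLysMcre (SD, n = 3). Its libraries overlapped. This ratio depends on the length used. Per kb of the longest transcript, Csf2rb stood at 62.5 CPM beside 34.3 for Csf2rb2 in Pdcd1f/f, and at 58.7 beside 31.5 in Pdcd1f/fLysMcre. How reads that match both copies were treated is not given in the sources used here, so the level of each copy is uncertain by the share of such reads.

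Csf3r, the G-CSF receptor known from neutrophils and their precursors, was lower in Pdcd1f/fLysMcre. The gene (chr4:126024550-126044440) had 2302, 2449 and 2484 normalized counts in Pdcd1f/f and 1776, 1507 and 1799 in Pdcd1f/fLysMcre. No library of either genotype reached into the range of the other, the mean was 70.2% of that in Pdcd1f/f, and the log2 fold change was -0.51 (SE 0.08). The sort described in the methods of the study left out Ly6G+ cells, and the Ly6g transcript gave at most 3 counts in any library. Of the 11 neutrophil markers, 5 were abundant enough to be tested, and their sum over the list was 86.9 to 95.5 CPM in Pdcd1f/f and 78.4 to 84.6 CPM in Pdcd1f/fLysMcre. The collagenase gene Mmp8 was the most abundant of the list and fell (log2 fold change -0.48, edgeR adjusted p = 0.0039), while S100a8 and S100a9, the calprotectin genes, had log2 fold changes of 0.23 and 0.12 and did not pass. Retnlg, a resistin-like gene of neutrophils, was at -0.95 without overlap of the genotypes (edgeR adjusted p = 0.11), Cxcr2 was at 0.03 and did not pass, and Camp, Elane and Ly6g were at or near 0. The part of these markers in the difference of Csf3r was not tested. A processed pseudogene, AC105061.2, shares 13.5% of the 42-base words of Csf3r but drew 0 to 2 counts per library.

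Il4ra, the alpha chain shared by the IL-4 and IL-13 receptors, showed the widest difference among the abundant receptors. The gene (chr7:125552120-125579474) had 28274, 33575 and 37187 normalized counts in Pdcd1f/f and 18088, 16297 and 19595 in Pdcd1f/fLysMcre. The 2 ranges were far apart, the mean of Pdcd1f/fLysMcre was 54.5% of that of Pdcd1f/f, with a log2 fold change of -0.87 (SE 0.10). An antisense gene, Gm44876, overlaps 571 of its 6002 exonic bases but had at most 1 count in any library. Per length of exon, Il4ra stood at 0.472 ± 0.0308 of Csf1r in Pdcd1f/f and at 0.321 ± 0.0133 of Csf1r in Pdcd1f/fLysMcre (SD, n = 3), without overlap. The chains that pair with Il4ra did not pass the test on all libraries without offsets. Il2rg, the common gamma chain of the type I IL-4 receptor, had a log2 fold change of 0.06 (SE 0.06, edgeR adjusted p = 0.604), and Il13ra1, which completes the type II receptor, had -0.07 (SE 0.09, edgeR adjusted p = 0.664). With GC and length offsets Il13ra1 was at -0.18 and passed (edgeR adjusted p = 0.0073). Stat6, the transcription factor that IL-4 activates, had -0.09 (SE 0.07, edgeR adjusted p = 0.418).

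Kit, the receptor for stem cell factor and a mark of progenitors and mast cells, was the only receptor of the 9 with a higher fitted mean in Pdcd1f/fLysMcre. The gene (chr5:75574916-75656722) had 195, 197 and 191 normalized counts in Pdcd1f/f and 170.2, 272 and 251 in Pdcd1f/fLysMcre. Pdcd1f/fLysMcre replicate 1 lay under all Pdcd1f/f libraries and replicates 2 and 3 lay above them, so the genotypes overlapped, with a log2 fold change of 0.25 (SE 0.17). The SD was 1.6% of the mean in Pdcd1f/f and 23.3% in Pdcd1f/fLysMcre. Of 10 mast cell and basophil markers, Fcer1a, Mcpt8 and Prss34 had no count in any library, 6 others gave at most 6 counts per library, and only Hdc, the histidine decarboxylase gene, which macrophages also express, was abundant enough to be tested. Hdc was higher without overlap of the genotypes (log2 fold change 0.47) and did not pass (edgeR adjusted p = 0.0599), while DESeq2 called 1 gene of the list. The list summed to 5.22 to 5.94 CPM in Pdcd1f/f and 6.41 to 8.72 CPM in Pdcd1f/fLysMcre, nearly all of it Hdc, and its part in the difference of Kit was not tested.

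Epor, the erythropoietin receptor, had the largest fold difference of the 9 receptors and by far the fewest counts. The gene (chr9:21958897-21963506) drew raw counts of 11, 11 and 13 in Pdcd1f/f but of 0, 1 and 2 in Pdcd1f/fLysMcre. In CPM this was 0.218 to 0.302 in Pdcd1f/f and at most 0.0418 in Pdcd1f/fLysMcre, where each library lay under the limit of 3 counts. The genotypes did not overlap, but the transcript was near the limit of detection at this depth in both. Over the summed libraries, 35 against 3 counts gave a level 12.9 times as high in Pdcd1f/f, with an exact 95% interval of 4.06 to 65.4 that covers counting error only and, since Epor was chosen for this difference, serves as no test. The fitted log2 fold change of -3.51 (SE 0.71) depends on how counts near 0 are handled. Because Epor is foremost a receptor of the red cell lineage, its level was set beside 10 erythroid genes. Slc4a1, Epb42 and Rhag were at 0 in all libraries, and the adult beta-globin gene Hbb-bs gave 15, 12 and 2 counts in Pdcd1f/f and 0, 3 and 8 counts in Pdcd1f/fLysMcre. The list summed to 0.835 to 1.35 CPM in Pdcd1f/f and 0.438 to 1.03 CPM in Pdcd1f/fLysMcre, overlapping between the genotypes, with Ermap as its most abundant gene. The erythroid transcription factor Gata1 had a single count in 1 of the 6 libraries, and Klf1 had 0 to 7 counts per library.

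The 250 bases before the RefSeq start of Epor, chr9:21963577-21963826 on the minus strand of GRCm38.p6, are shown because Epor differed most among the receptors and its promoter is known as a target of erythroid GATA factors. They are read 5′ to 3′ along the gene, and capitals mark, in this order, the letters AGATAA of a GATA motif and GGGCGG of an Sp1 motif, both found on the opposite strand.
Epor promoter: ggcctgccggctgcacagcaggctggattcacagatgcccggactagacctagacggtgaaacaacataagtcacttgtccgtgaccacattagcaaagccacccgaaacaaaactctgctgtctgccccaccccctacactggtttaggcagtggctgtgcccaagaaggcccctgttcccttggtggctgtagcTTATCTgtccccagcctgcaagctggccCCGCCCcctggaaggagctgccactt
The GATA match lies at position -54 and the Sp1 match at position -26 from this RefSeq start. That start lies upstream of the gene as positioned above, which begins at 21963506 on this strand. For Epor and Il3ra, the bases shortly after the RefSeq start were not found in the annotated transcripts. Among 32851 promoter windows of the same length, 9.99% held AGATAA and 32.7% held GGGCGG on either strand, so neither match sets Epor apart. Sequences of this kind were found for 7 of the 9 receptors, all but Csf1r and Csf2rb. Of the 7, only Epor held AGATAA. The letters GAGGAA of a PU.1 motif, present in 23.3% of all windows, were found in Csf2ra, Csf2rb2, Csf3r and Kit, and the letters TTGCNNAA of a C/EBP motif, present in 9.56%, in Il3ra. Csf2rb2 alone held TTCNNNGAA, the letters of a STAT motif present in 7.02% of windows, and TATAAA, present in 12.4%, was in none of the 7. These are matches of letters on both strands and not measured sites.

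Of the 9 receptors, 8 had a lower and 1 a higher fitted mean in Pdcd1f/fLysMcre, and their median log2 fold change was -0.32, beside -0.0026 over all 14469 genes tested. At an edgeR adjusted p under 0.05, 4 of the 9 (Csf1r, Csf3r, Il4ra and Epor) were called, all of them lower. Epor passed the count filter only through its Pdcd1f/f libraries, so its call serves as no test. DESeq2 called 3 of the 9, without Epor. The edgeR count was 1 to 6 with a single library left out (1 without Pdcd1f/f replicate 2, 6 without Pdcd1f/f replicate 1). It was 7 without Pdcd1f/f replicate 1 and Pdcd1f/fLysMcre replicate 2 together, and 2 at an adjusted p of 0.01. Csf1r and Epor were each called in 2 of the 6 fits without a single library. Over all genes tested, 5.43% were called in either direction, 3.01% lower and 2.42% higher. The libraries of the genotypes did not overlap for 5 of the 9, all lower, where 13.1% of all genes tested were lower without overlap and 27.2% did not overlap in either direction. As the receptors were chosen with this contrast known, these counts describe the set and nothing is read from them.

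The size of these differences was followed over 17 further fits, which changed the scaling, the filter, the tool, the correction for GC content or the libraries used. Il4ra lay between -0.98 and -0.75 on the log2 scale, Csf3r between -0.56 and -0.42, and Csf1r between -0.38 and -0.22. Epor, in the 16 fits that could include it, lay between -4.38 and -2.87. Csf2rb lay between -0.13 and 0.01, and was on the higher side in the 2 fits with GC and length offsets. Kit was on the higher side in all 17 fits, between 0.11 and 0.43.

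**Figure D3:**
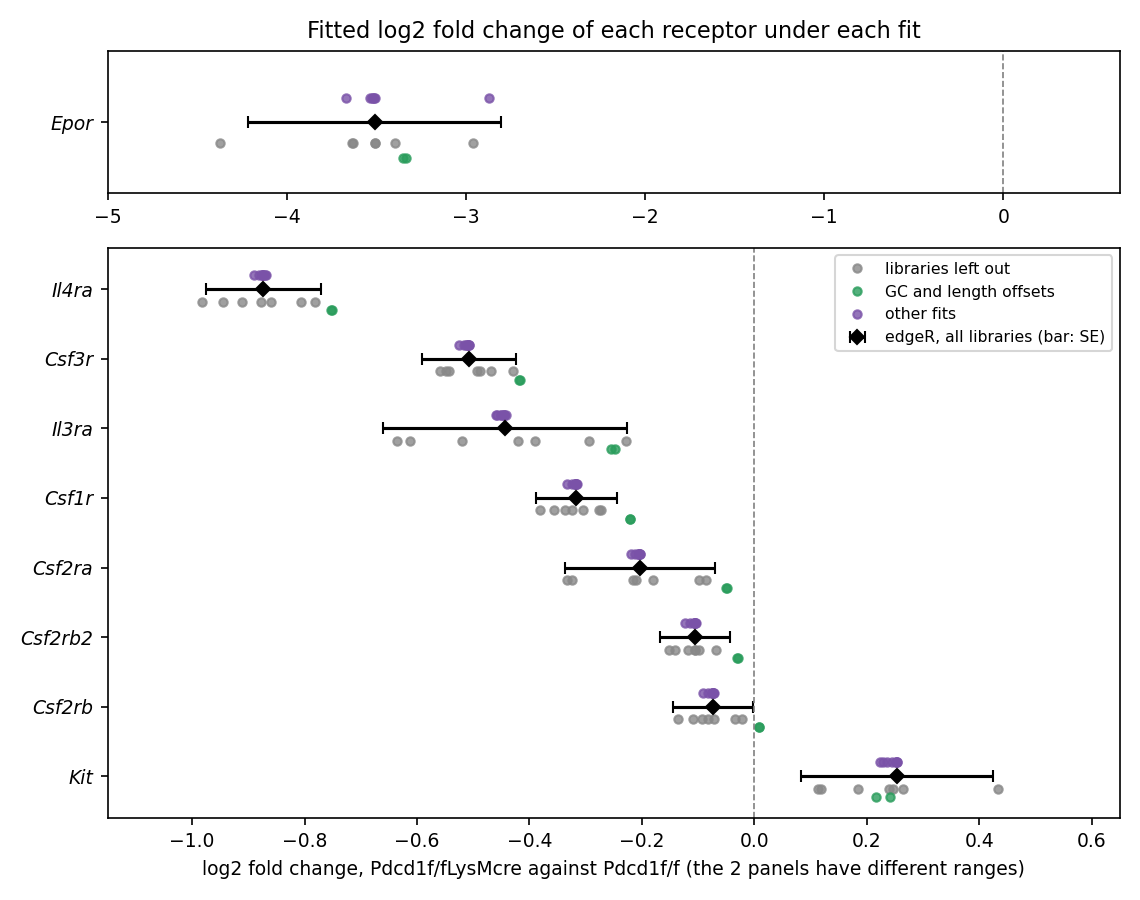
Fitted log2 fold change of each receptor between Pdcd1f/fLysMcre and Pdcd1f/f, with Epor on its own wider axis above the other 8; black diamonds with bars are the edgeR fit on all libraries with its SE, and colored points are the fits with libraries left out, with GC and length offsets and with other settings. Il4ra stays between -0.98 and -0.75, and Csf2rb straddles 0.

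The libraries of a genotype differed from each other along the GC content of the receptor genes. In Pdcd1f/f, 8 of the 9 receptors were lowest in replicate 1 and 8 were highest in replicate 3. In Pdcd1f/fLysMcre, 7 were lowest in replicate 2 and 8 were highest in replicate 3. Il3ra was the most GC-rich receptor, with 60.7% GC in its longest transcript. It lay 0.42 below its genotype mean on the log2 scale in Pdcd1f/f replicate 1 and 0.51 below it in Pdcd1f/fLysMcre replicate 2. Kit, the least GC-rich with 48.5%, lay 0.26 above its mean in that last library. With each library left out in turn, the log2 fold change of Il3ra ranged from -0.64 to -0.23, the widest range among the receptors other than Epor. The part of GC content in the differences between the genotypes was examined only through the offsets named above, under which all 9 fold changes moved toward 0, Csf2rb past it. Csf2ra was then at -0.05, Csf2rb at 0.01 and Csf2rb2 at -0.03. Il3ra was at -0.25, Csf1r at -0.22, Csf3r at -0.42 and Il4ra at -0.75. Kit was at 0.24 and Epor at -3.34.

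**Figure D4:**
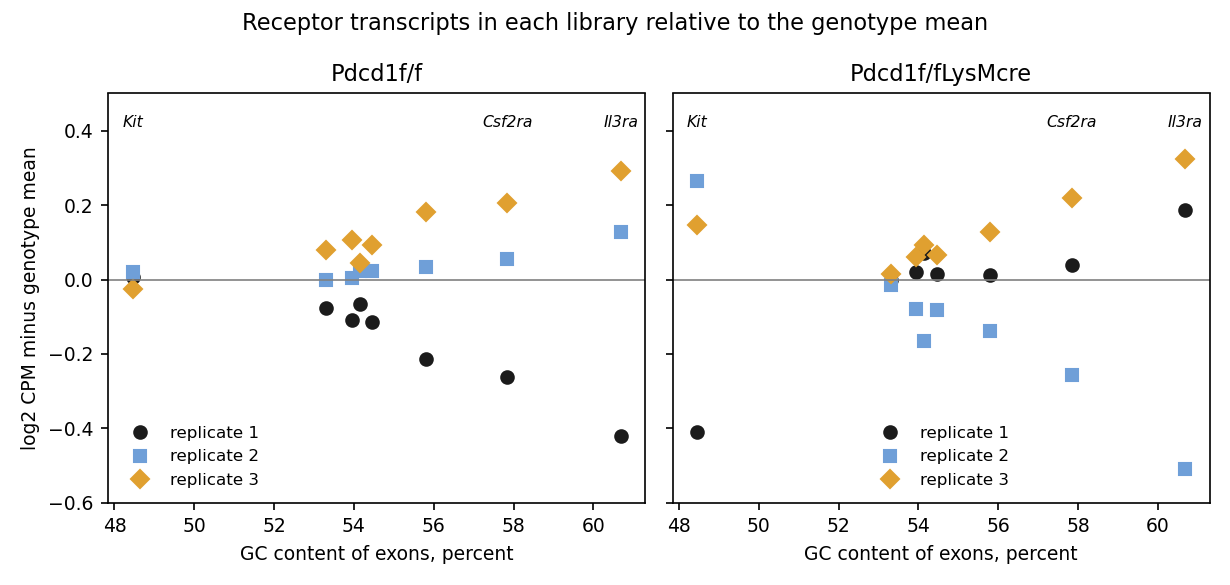
Deviation of each receptor from the mean of its genotype against its GC content in percent, for the 3 Pdcd1f/f libraries on the left and the 3 Pdcd1f/fLysMcre libraries on the right. The vertical axis, labelled log2 CPM, shows log2(normalized count + 1). The horizontal axis, labelled as exons, shows the GC content of the longest transcript. Epor is left out because of its low counts. Il3ra at 60.7% GC lies lowest in Pdcd1f/f replicate 1 and in Pdcd1f/fLysMcre replicate 2.

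The ligands of these receptors were a separate list, of which 7 of 12 were abundant enough to be tested and 2 passed, both higher in Pdcd1f/fLysMcre (median log2 fold change of the 7 genes 0.11, and 2 called with DESeq2). Kitl, which encodes stem cell factor, the ligand of Kit, rose from a normalized count of 175 ± 15.8 to 353 ± 55.6 (SD, n = 3), with a fitted log2 difference of 1.01 (SE 0.14, edgeR adjusted p = 0.0031). Csf3, which encodes G-CSF, the ligand of Csf3r, rose from 211 ± 23.3 to 310.4 ± 6.41, a log2 fold change of 0.56 (SE 0.12, edgeR adjusted p = 0.0245). For both ligands the lowest Pdcd1f/fLysMcre library lay above the highest Pdcd1f/f library, but of the 6 fits without a single library Csf3 passed only in the one without Pdcd1f/f replicate 1, and Kitl passed in 6 of 6. Kitl lies on chromosome 10, 17.2 Mb from Lyz2, where Cre is inserted, and whether DNA linked to the insertion bears on it was not tested. Csf1, the main ligand of Csf1r, had a log2 fold change of 0.11 (SE 0.09, edgeR adjusted p = 0.495), and Il34, its other ligand, had -0.57 (SE 0.20, edgeR adjusted p = 0.114). Csf2, which encodes GM-CSF, gave 3 to 15 counts per library, and Il3, Il5 and Il4 gave at most 4. Epo and Il13 gave no count in any library, which allows up to 0.0717 CPM in the shallowest library. Flt3l (-0.33) and Tslp (-0.16) did not pass either.

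Among 22 partner and related receptors, 19 were tested and 3 passed (median log2 fold change of the 19 genes 0.0028, and 3 called with DESeq2). Il7r, the IL-7 receptor alpha chain, rose (log2 fold change 0.69, SE 0.07, edgeR adjusted p = 0.00036), and Lifr, the receptor for leukemia inhibitory factor, fell (-0.68, SE 0.10, edgeR adjusted p = 0.0039). Ifngr1, the ligand-binding chain of the interferon-gamma receptor, fell by 0.28 (SE 0.06, edgeR adjusted p = 0.0254). The 8 fibroblast, tumour and endothelium markers summed to 92.4 to 96.5 CPM in Pdcd1f/f and 78.2 to 87.3 CPM in Pdcd1f/fLysMcre without overlap, with Col1a2 (-1.0, edgeR adjusted p = 0.0121) and Pecam1 (-0.62, edgeR adjusted p = 0.0034) called lower, 2 of 8 beside 3.01% of all genes. The other 6 did not pass, with Dcn, the most abundant, at 0.03, Pdgfra at 0.05, Cdh5 at -0.01, Col3a1 at -0.07, Pdgfrb at -0.42 and Col1a1 at -0.78. The part of these markers in the differences of Lifr and the other receptors was not tested. The TAM sort described in the methods of the study was gated on live CD45+ cells, and transcripts of all 8 markers were read in every library. Il7r and Lifr passed in 6 of 6 fits without a single library and Ifngr1 in 2 of 6. Il5ra, the third alpha chain that pairs with Csf2rb, had at most 3 counts per library and was not tested.

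All 30 kinases, adaptors and phosphatases of the pathway were tested, and 4 passed, or 8 with DESeq2 (median log2 fold change -0.07). Pik3cb and Pik3r1, a catalytic and a regulatory subunit of PI3 kinase, rose by 0.35 (edgeR adjusted p = 0.0134) and 0.34 (edgeR adjusted p = 0.0207) on the log2 scale. Pik3cd, another catalytic subunit, was at -0.36 without overlap of the genotypes and did not pass (edgeR adjusted p = 0.0704). Jak2, the kinase bound by Csf2rb and Epor, rose by 0.25 (edgeR adjusted p = 0.0484), and Tyrobp, an adaptor that works with Csf1r in macrophages, fell by 0.33 (edgeR adjusted p = 0.0405). Of the other JAK kinases, Jak3 was at -0.51 without overlap of the genotypes and did not pass (edgeR adjusted p = 0.0722). Tyk2 was at -0.22 and Jak1 at 0.02, and neither passed. Without a single library, Pik3cb passed in 3 of 6 fits and Pik3r1 in 2, while Jak2 and Tyrobp passed only in the fit without Pdcd1f/f replicate 1. Jak2 passed in 8 of the 17 further fits, and on all libraries it missed the threshold with RLE size factors (edgeR adjusted p = 0.0512), with library size alone (0.0621), with the genes of the normalized table (0.0542) and with limma (0.0559). Lyn, a Src kinase of the beta chain, had -0.04 (edgeR adjusted p = 0.754), Stat5a -0.12 (edgeR adjusted p = 0.508) and Stat5b -0.24 (edgeR adjusted p = 0.117). Stat5b passed in 4 of the 17 further fits, among them that with GC and length offsets (-0.17, edgeR adjusted p = 0.0265) and that without Pdcd1f/f replicate 1 (-0.32, edgeR adjusted p = 0.011). Ptpn11, which encodes SHP-2, the phosphatase that PD-1 recruits, had 4695 and 4685 normalized counts on average in Pdcd1f/f and Pdcd1f/fLysMcre.

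Of the feedback and target genes, 19 of 20 were tested and 0 passed with edgeR or with DESeq2, while 8 had an unadjusted edgeR p under 0.05 (median log2 fold change -0.05). This list held Cish and the Socs genes, which restrain cytokine signaling, Mcl1 and Bcl2l1, which sustain survival, and Retnla and Chil3, which IL-4 induces in macrophages. Retnla had a log2 fold change of -2.02 (SE 0.54, edgeR adjusted p = 0.0578) on a mean of 19.8 normalized counts in Pdcd1f/f and 4.84 in Pdcd1f/fLysMcre, without overlap, and Chil3 was at -0.05 (edgeR adjusted p = 0.699). Of the other genes of the list that IL-4 induces, Ccl22 was at 0.15, Ccl24 at 0.12, Mgl2 at -0.38 and Clec10a at -0.17, and none of them passed. Ccl17, also of this kind, was too low to be tested, with 13, 5 and 4 counts in Pdcd1f/f and 1, 3 and 1 in Pdcd1f/fLysMcre. Of the 13 transcription factors known from these receptor genes, 11 were tested and 2 passed, both lower in Pdcd1f/fLysMcre, where DESeq2 called 4 (median log2 fold change of the 11 genes -0.02). Maf, a macrophage factor, fell by 0.26 (edgeR adjusted p = 0.0391), and Cebpa, which acts on the Csf3r and Csf1r genes, fell by 0.35 (edgeR adjusted p = 0.0380) on the log2 scale. With GC and length offsets the value of Cebpa was -0.13 (edgeR adjusted p = 0.147), and without a single library it passed only in the fit without Pdcd1f/f replicate 1. Maf passed in 2 of these 6 fits. Of those that did not pass, Cebpe (1.16, edgeR adjusted p = 0.0651) and Mitf (0.25, edgeR adjusted p = 0.0528) were higher without overlap of the genotypes. So were Runx1 (0.19, edgeR adjusted p = 0.0924) and Ets2 (0.09, edgeR adjusted p = 0.39). Irf8 was lower without overlap (-0.30, edgeR adjusted p = 0.0519). Spi1, which encodes PU.1, was not among those that passed. Of the 6 genes of receptor shedding and turnover, among them Adam17, the protease that cleaves Csf1r, 0 passed with edgeR or DESeq2 and 0 had an unadjusted edgeR p under 0.05. Over all 6 lists, 92 of 103 genes were tested, 6 rose and 5 fell, which is 12% called beside the 5.43% over all genes.

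**Figure D5:**
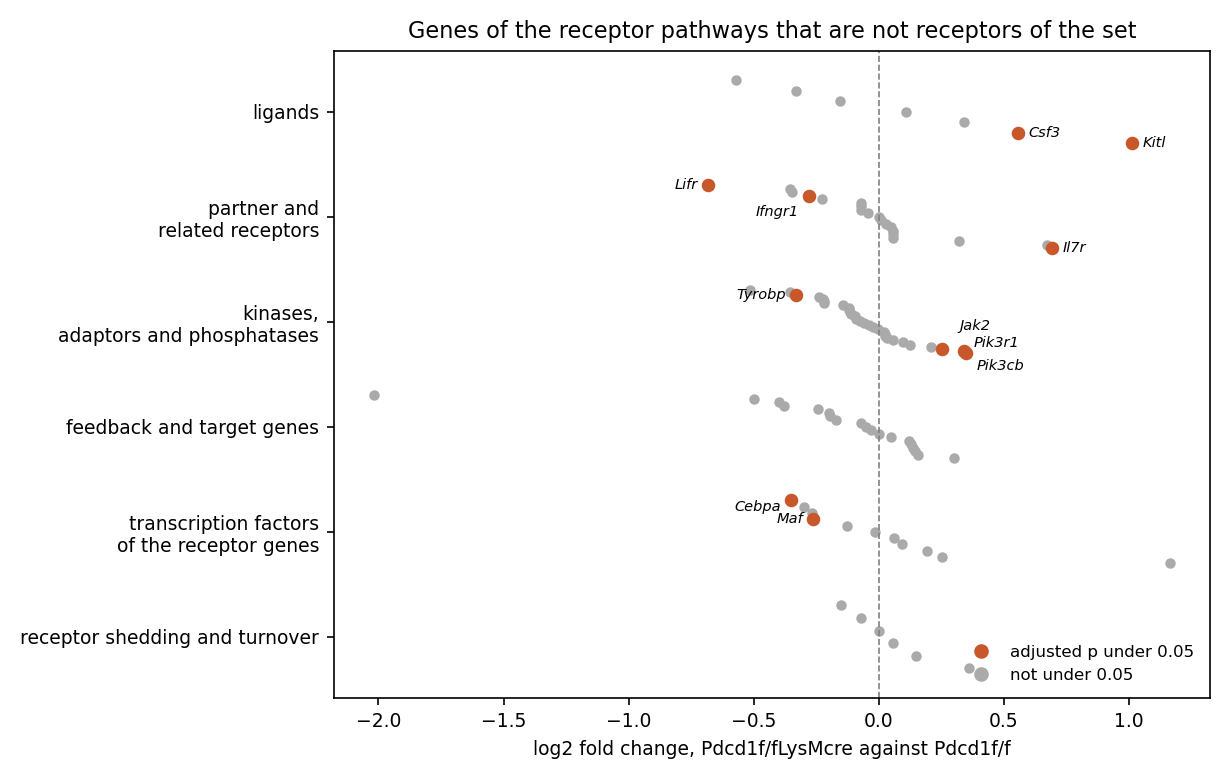
Log2 fold change between Pdcd1f/fLysMcre and Pdcd1f/f of the 92 tested genes of the receptor pathways, 1 row of points per list; orange points with names passed an edgeR adjusted p of 0.05 and grey points did not. Kitl (1.01) and Il7r (0.69) lie farthest to the right and Lifr (-0.68) farthest to the left of those that passed.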

How the data were processed

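TAM libraries were made with a stranded poly(A) mRNA kit and sequenced as paired-end 42-nt reads. Per the labels and the methods of the study, the authors trimmed reads with cutadapt 2.5, aligned them to GRCm38 with STAR 2.7.3a and counted reads per Ensembl gene with featureCounts of Subread 1.6.2; strand and multi-mapping settings are not given in the sources used here. The authors deposited raw counts per gene and, for 16552 genes, a normalized signal, the counts divided by DESeq2 size factors (0.895 to 1.08), from which the normalized counts, means and SDs were taken. Symbols and positions came from GENCODE annotation of GRCm38, promoters from RefSeq (GRCm38.p6).

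Here the counts were tested with edgeR 4.0.16 (R 4.3.3): filterByExpr (minimum count 10, minimum total 15), TMM scaling, robust quasi-likelihood fits with genotype as the only term, two-sided tests and Benjamini-Hochberg adjustment over 14469 genes, called at 0.05. The biological coefficient of variation was 8.92%. The code was tested on simulated data. Levels are CPM per kb of merged exons. Alternatives used DESeq2 1.42.0, limma 3.58.1 on log2(normalized value + 1), other scalings and filters, loess offsets for GC content and length, the replicate number as a block and omitted libraries.

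The receptors and all gene lists were chosen with earlier results of these data known. All 9 receptors are named, together with Pdcd1 and Lyz2, up to 6 genes per pathway list past the threshold, and the ligands, paired chains and kinases listed for them whatever their result. Ptpn11, Pik3cd, Jak1, Jak3 and Tyk2, and single genes of the other lists named as examples, were named after their values were seen. Some genes first listed are not reported here and are left out of the list counts.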

Additional observations from a re-analysis of the deposited data

How the results depend on the processing

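The count of genes past the threshold was 786. It was 1951 without the filter on low counts, 1517 with DESeq2, 2671 with GC and length offsets, 2729 with these offsets and the replicate block, 3757 without Pdcd1f/f replicate 1 and Pdcd1f/fLysMcre replicate 2 together, and 283 at an adjusted p of 0.01. Leaving out a single library gave 222 to 3181 genes, the highest without Pdcd1f/f replicate 1. The count of pathway genes past the threshold, 11, was 24 without the filter, 17 with DESeq2, 28 with the offsets, 29 with the offsets and block, 36 without the pair of libraries, 3 at 0.01 and 3 to 27 without a single library. The cause was not tested. Levels per kb rose where the longest transcript is shorter than the merged exons, by construction.

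Replicate numbers did not pair the libraries: same-numbered deviations correlated at -0.01, -0.10 and 0.22, and not every library correlated best with its own number. With the number as a replicate block, 1027 genes passed, 754 of them among the 786.

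None of the pathway genes named as past the threshold changed sign in the alternatives run; the marker genes were not run. With the offsets, 1522 genes were called higher and 1149 lower, beside 350 and 436 without them. Among genes that did not pass, Csf2rb and Stat5a turned higher with the offsets, and Csf2, Tslp and Il13ra1 changed sign without 1 library. With 3 libraries a genotype, Epor, Csf2 and the other genes under about 10 counts per library are limited by depth.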
